A study of Homo sapiens with 20 samples.

Results

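The comparison set 94T778, a cell line of well differentiated liposarcoma, against 4 other cancer lines in their untreated state: the melanoma lines A375 and SKMEL28 and the breast cancer lines SKBR3 and AU565. Its members were the 10 untreated libraries of the 20 in the series, 2 per line, and the other 10 libraries held the same lines after 72 h of torkinib, an inhibitor of the MTOR kinase. The contrast was 94T778 against the mean of the 4 other lines, each with equal weight, and a gene was called apart when 94T778 differed in the same direction from each of the 4 lines taken singly. The series was designed to ask how MTOR inhibition changes genes of DNA repair, so the baseline contrast between lines is not the question it was built for. None of the 10 libraries carried a drug or a named allele, but the media differed: RPMI for 94T778 and SKBR3, RPMI with added pyruvate and bicarbonate for AU565, DMEM for A375 and MEM for SKMEL28. SKBR3 alone shared the medium of 94T778, so against the 3 other lines, line and medium cannot be told apart. Each line stands for 1 tumour, and SKBR3 and AU565 are known to come from the same patient, so the 4 lines are not 4 independent tumours.

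Well differentiated and dedifferentiated liposarcomas are tumours of the fat cell lineage whose hallmark is extra copies of a stretch of the long arm of chromosome 12. That stretch holds MDM2, a ubiquitin ligase that binds p53 and marks it for destruction, and CDK4, a kinase that releases cells into the cycle by phosphorylating the retinoblastoma protein. It often also holds HMGA2, an architectural chromatin protein, and FRS2, an adaptor of fibroblast growth factor receptors. Cells of mesenchymal origin are known for secreting collagens and other matrix proteins, while breast cancer lines keep epithelial genes and melanoma lines keep genes of the pigment cell to varying degrees.

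The untreated libraries held 5201967 to 9737903 counted reads, of which 94T778 had 6000784 and 6066431. Mitochondrial transcripts took 2.85 and 3.01% of counts in 94T778 and 3.17 to 7.63% in the other lines. Levels below are normalised CPM, edgeR's count scale with library sizes adjusted by TMM factors, and pairs of values are replicates 1 and 2. The labels were checked against markers. ERBB2, the receptor amplified in these breast lines, stood at 7421 and 7637 CPM in SKBR3 and 9856 and 9403 CPM in AU565, and at most at 69.5 CPM in the other 6 libraries. SOX10, a factor of pigment cells, stood at 540 and 599 CPM in A375 and 472 and 461 CPM in SKMEL28, but the pigment gene MLANA was at 928 CPM in both SKMEL28 libraries and at 0.923 and 0.358 CPM in A375. Summed over the 20 melanocyte genes the level was 837 CPM in A375, 812 CPM in 94T778 and 10212 CPM in SKMEL28.

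A375 replicate 1 stood apart from replicate 2 in genes of 94T778. Of the genes tested, 14 had at least 50 CPM in both 94T778 libraries and at most 0.2 CPM in the 6 SKMEL28, SKBR3 and AU565 libraries. Their median level was 4.03% of that in 94T778 in A375 replicate 1, against 1.21% in replicate 2 and 0.570 and 0.505% in the torkinib A375 libraries. FN1 stood at 636 and 59.1 CPM, and THY1 at 18.7 and 0.478 CPM, in A375 replicates 1 and 2. Why replicate 1 holds these reads was not tested. Ratios to the closest line are therefore given with both A375 libraries and, where it moved the ratio by more than 1.5 times, also without replicate 1, which was the case for 58 of the genes apart on the higher side.

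By edgeR's quasi-likelihood test at a Benjamini-Hochberg adjusted p of 0.05 over the 16698 genes tested, 94T778 was higher than the mean of the 4 lines for 6284 genes (37.6%) and lower for 5108 (30.6%), together 68.2% of the genes tested. Against single lines the calls were 5419 higher (32.5%) and 5783 lower (34.6%) for A375, and 5430 higher (32.5%) and 5325 lower (31.9%) for SKMEL28. They were 6563 higher (39.3%) and 6233 lower (37.3%) for SKBR3, and 6387 higher (38.3%) and 6074 lower (36.4%) for AU565. With differences called for this large a share of all genes, the stricter rule carries the description: 2164 genes (13%) were higher in 94T778 than in each of the 4 lines and 1295 (7.76%) were lower than in each. The labels do not say whether replicates were grown apart, so the variation within pairs of libraries may be purely technical. Each p-value rests on a spread estimated per gene over the pairs of all 20 libraries, torkinib included. The untreated pairs were not equally close: a chi-square of the counts per gene came to 12.2 for SKBR3 and to between 1.49 and 2.62 for the 4 other lines. The tests against SKBR3 therefore do not measure the spread of its own pair.

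The size of these differences varied widely. The ratio to the closest line is the smallest of the 4 ratios of mean CPM, with a line under 3 counts over its 2 libraries set to 3 counts. Of the genes apart, 1109 higher (6.64% of the genes tested) and 484 lower (2.90%) were at least 2-fold from the closest line. At least 4-fold were 643 higher (3.85%) and 205 lower (1.23%), and at least 16-fold were 189 higher (1.13%) and 50 lower (0.299%). Such a count is no mark of 94T778 alone: by the same rule 3268 genes set A375 apart from the other 4 lines (12.3% higher, 7.23% lower) and 3903 SKMEL28 (14.2% higher, 9.14% lower). For SKBR3 there were 3769 (12.4% higher, 10.2% lower) and for AU565 2116 (7.99% higher, 4.68% lower), beside 3459 for 94T778. The fewest calls between 94T778 and another line were those against SKMEL28 (10755, 64.4%), followed by A375 (67.1%), AU565 (74.6%) and SKBR3 (12796, 76.6%), while SKBR3 and AU565 differed from each other in 8556 genes (51.2%).

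**Figure D1:**
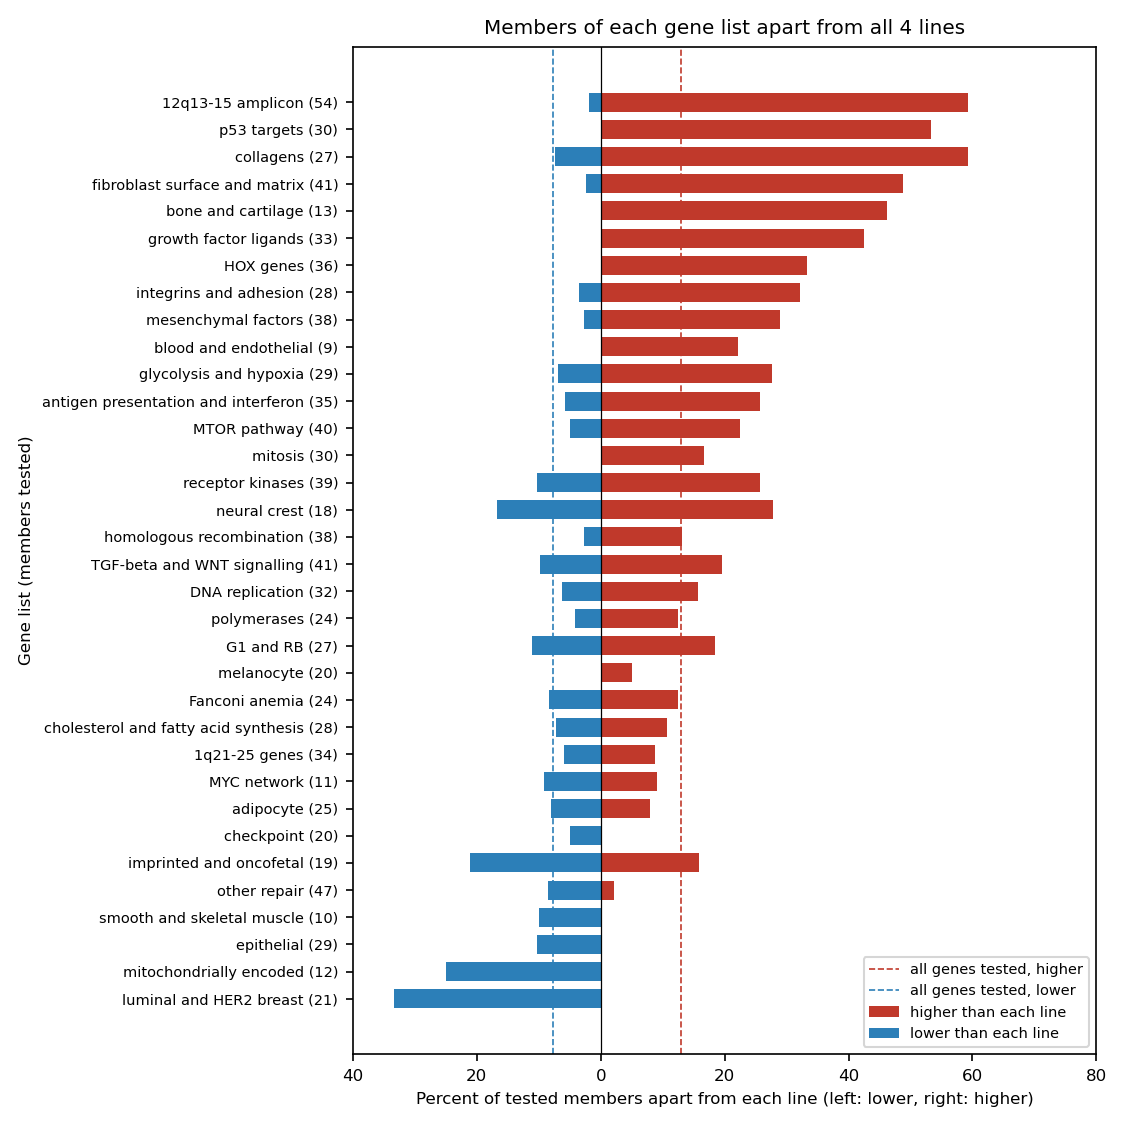
Share of the tested members of each gene list that were apart from all 4 lines, in percent, with bars to the right for higher and to the left for lower in 94T778 and the number of members tested in brackets. The dashed lines mark all genes tested (13% higher, 7.76% lower), and the amplicon, collagen and p53 lists reach 59.3, 59.3 and 53.3% on the higher side.

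Most genes of the chromosome 12 amplicon were higher in 94T778 than in every other line, MDM2 and CDK4 among them. MDM2 stood at 6914 and 7209 CPM in 94T778 and between 54.4 and 223 CPM in the 8 other libraries, of which A375 replicate 1 was the highest. The groups did not overlap, the log2 difference from the mean of the 4 lines was 6.27 ± 0.10 (SE), and the ratio to the closest line, A375, was 42.8, or 65.3 without A375 replicate 1. CDK4 stood at 3292 and 3166 CPM against 284 and 254 CPM in A375, 133 and 131 CPM in SKMEL28, 124 and 129 CPM in SKBR3 and 95.3 and 89.2 CPM in AU565. That is a log2 difference of 4.50 ± 0.05 (SE), and the largest of the 4 adjusted p-values by edgeR was 2.7e-30. CDK4 and its neighbour TSPAN31, a tetraspanin gene, lie tail to tail and overlap, and since the strand setting of the counting is not given, their reads may not be fully told apart.

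HMGA2 followed another order. It stood at 549 and 551 CPM in 94T778, 260 and 257 CPM in A375 and 83.3 and 79.4 CPM in SKMEL28, but at 0.368 CPM or less in the 4 breast libraries. It was apart from each line, yet only 2.12-fold above A375 (log2 difference 1.09 ± 0.08, SE), and when tested against a 2-fold difference instead of 0 it was no longer apart. FRS2 stood at 426 and 420 CPM against 16 to 41.5 CPM in the other libraries, a log2 difference of 3.94 ± 0.07 (SE). YEATS4, a reader of acetylated histones that lies beside FRS2, stood at 212 and 204 CPM against 13.9 to 45.1 CPM, a log2 difference of 3.05 ± 0.08 (SE). TSPAN31 stood at 225 and 226 CPM against 27.6 to 47.2 CPM, a log2 difference of 2.72 ± 0.07 (SE). In each of these 3 genes the 94T778 libraries lay above all 8 others.

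**Figure D2:**
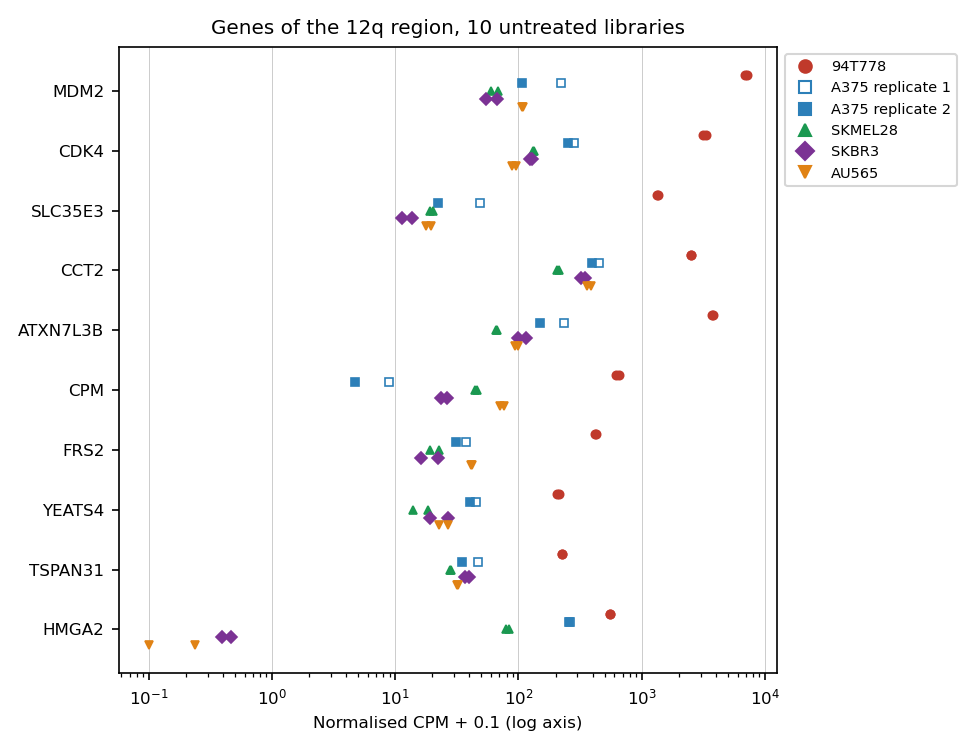
Level of 10 genes of the chromosome 12 region in each of the 10 untreated libraries, as normalised CPM plus 0.1 on a log axis, with 1 point per library and A375 replicate 1 drawn hollow. Both 94T778 points lie to the right of all others in every row, with the smallest gap for HMGA2, where A375 stands at 260 and 257 CPM.

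Of the 54 tested members of the amplicon list, 32 were apart on the higher side (59.3%, beside 13% of all genes) and 1, XPOT, on the lower side. The median log2 difference from the mean of the 4 lines was 1.74 for the list and -0.0038 for all genes tested, and since the list was drawn up from the known amplicon of such tumours, its direction is no independent evidence. The members with the largest ratio to the closest line, without A375 replicate 1, were MDM2, SLC35E3, PTPRR and IRAK3. SLC35E3, a putative nucleotide sugar transporter gene beside MDM2, stood at 1340 and 1350 CPM against 11.2 to 48.8 CPM. PTPRR, a receptor tyrosine phosphatase, stood at 212 and 205 CPM against 4.22 CPM or less, 51.2-fold above A375. IRAK3, an inhibitor of Toll-like receptor signalling, stood at 13.7 and 19.3 CPM against 0.391 CPM or less. XPOT, the exporter of transfer RNA, stood at 178 and 177 CPM, just below SKBR3 at 204 and 227 CPM.

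The elevation was not continuous along the arm. Members of the list that were not apart included TBK1, DDIT3, TSFM, METTL1 and CTDSP2. TSFM, a mitochondrial translation factor that lies near CDK4, stood at 29.05 and 28.4 CPM against 23.1 to 65.1 CPM, inside the range of the other lines. In the order of the RefSeq gene table, runs of at least 3 neighbouring tested protein-coding genes that were all apart in one direction and at least 2-fold from the closest line numbered 32, of which 28 were higher and 4 lower. Chromosome 12, with 734 of the 13818 tested protein-coding genes, held 8 of the 32, with 34 of the 117 genes in runs. In order they were RAPGEF3 to HDAC7, then TSPAN31, CDK4 and MARCH9, then MSRB3, HMGA2, LLPH, TMBIM4 and IRAK3, then NUP107, SLC35E3, MDM2, the carboxypeptidase M gene (symbol CPM) and CPSF6. The run after it held YEATS4, FRS2, CCT2, BEST3 and RAB3IP, the following one CNOT2, KCNMB4, PTPRB, PTPRR and LGR5, and the last ones ATXN7L3B, CAPS2, GLIPR1L1, GLIPR1 and KRR1, and NDUFA12, NR2C1 and FGD6. Without A375 replicate 1 there were 7 runs on chromosome 12.

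ATXN7L3B, an adaptor of histone deubiquitinases, stood at 3758 and 3704 CPM against 66.2 to 233 CPM, 19.6-fold above A375. CCT2, a subunit of the cytosolic chaperonin, stood at 2524 and 2493 CPM against 204 to 454 CPM. CNOT2, a subunit of the main deadenylase complex, stood at 520 and 535 CPM against 45.8 to 80.0 CPM. In all 3 the 94T778 libraries lay at least 5.90-fold above the closest line. LGR5, a receptor for R-spondins, stood at 12.6 and 12.9 CPM, against 1.45 and 0.119 CPM in A375 and 0.184 CPM or less in the others. The A375 level rests on 12 counts, 11 of them in replicate 1, and DESeq2 did not call LGR5 apart.

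**Figure D3:**
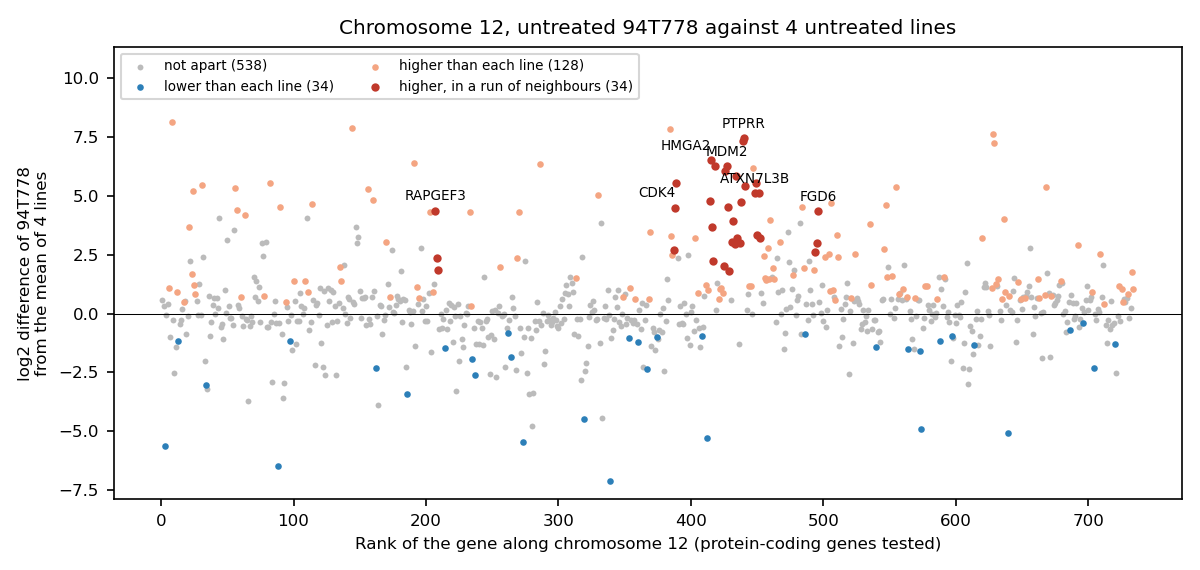
Difference of 94T778 from the mean of the 4 other lines (log2, lines under 3 counts set to 3 counts) for each tested protein-coding gene of chromosome 12, in gene order. The 34 genes in runs of neighbouring higher genes (dark red) cluster between TSPAN31 and FGD6, with RAPGEF3 and its neighbours further left, among genes that are not apart (grey).

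Over whole chromosomes, 162 of 734 tested protein-coding genes of chromosome 12 were apart on the higher side (22.1%, beside 13.7% of all tested protein-coding genes). Chromosome X had 128 of 520 (24.6%), chromosome 4 had 19.5% higher and 1.35% lower, and chromosome 9 had 19.2% higher. The largest share on the lower side was on chromosome 7, with 139 of 649 genes (21.4%, beside 8.51% of all), and chromosome 22 had the fewest higher genes, with 5.90%. The files hold RNA counts alone, so no copy number stands beside these shares.

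Runs outside chromosome 12 included METTL13, DNM3, PIGC and C1orf9, and TPR and its neighbours, on chromosome 1. PIGC, an enzyme of glycosylphosphatidylinositol anchor synthesis, stood at 528 and 530 CPM against 19.6 to 48.3 CPM. TPR, a nucleoporin of the nuclear basket, stood at 2188 and 2304 CPM against 227 to 491 CPM. PTGS2, the inducible cyclooxygenase, closes that run, with 42.4 and 45.9 CPM against 6.69 CPM or less. A wider list of genes of 1q21-25, a stretch reported as co-amplified in liposarcoma, had 3 of 34 tested members higher (8.82%) and 2 lower (5.88%), with a median log2 difference of -0.22, so its shares lay near or under those of all genes. On chromosome 20, FKBP1A, the receptor of rapamycin and tacrolimus, stood at 3731 and 3544 CPM against 269 to 766 CPM, 4.82-fold above SKMEL28. On chromosome 15, UNC45A, a myosin chaperone, stood at 1031 and 1018 CPM against 65.1 to 121 CPM.

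The longest run held 8 genes on chromosome 19, of which 7 were pregnancy-specific glycoproteins, secreted proteins known from the placenta, and the last CD177. PSG4 stood at 470 and 479 CPM in 94T778 and at 10.7 CPM or less elsewhere, 51.1-fold above AU565. The other 6 were at 13.5 CPM or less in 94T778. These genes are near-identical copies, so reads may have been split between them or dropped, and their separate values are uncertain. The longest lower run was on chromosome X and held cancer-testis antigens: MAGEA3 stood at 3.08 and 3.87 CPM against 71.1 to 120 CPM, and MAGEA12 at 1.37 and 0.505 CPM against 26.8 to 78.1 CPM. The MAGEA2, MAGEA2B and CSAG members of the same run also have near-identical copies and are uncertain.

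The 15 genes higher in 94T778 with the largest ratio to the closest line, among those with at least 10 CPM in both 94T778 libraries and ranked without A375 replicate 1, were THY1, CLDN11, SFTA1P, FLNC, GFRA1, GJA1, ADAMTS5, LAYN, SLC28A3, CD34, GREM1, CYP24A1, WNT5B, IL6 and FBN2. THY1, a surface protein of fibroblasts and mesenchymal stem cells, stood at 1428 and 1382 CPM against 0.686 CPM or less in SKMEL28, SKBR3 and AU565, and 18.7 and 0.478 CPM in A375. The ratio to A375 was 146 with both of its libraries and 2468 without replicate 1. CLDN11, a tight junction claudin, stood at 1354 and 1384 CPM against 0.836 CPM or less outside A375 replicate 1, where it was 20.4 CPM. Its ratio to A375 was 129, or 1638 without replicate 1.

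The rest of these genes included secreted and surface proteins. CYP24A1, the enzyme that inactivates vitamin D, stood at 787 and 840 CPM against 0 to 4.05 CPM, 273-fold above SKBR3 with or without A375 replicate 1. GREM1, an antagonist of bone morphogenetic proteins, stood at 314 and 327 CPM against 1.31 CPM or less, 280-fold above SKMEL28. CD34, a sialomucin of vascular progenitors that is also found on adipose stromal cells, stood at 99.5 and 102 CPM against 0.528 CPM or less. IL6, an inflammatory cytokine, stood at 159 and 155 CPM, with 22.3 and 0.597 CPM in A375 and 0.736 CPM or less in the others. Its ratio to A375 was 13.7, or 263 without replicate 1, the widest gap between these ratios among the 15 genes. GJA1, the gap junction protein connexin, stood at 166 and 182 CPM against 1.85 CPM or less.

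**Figure D4:**
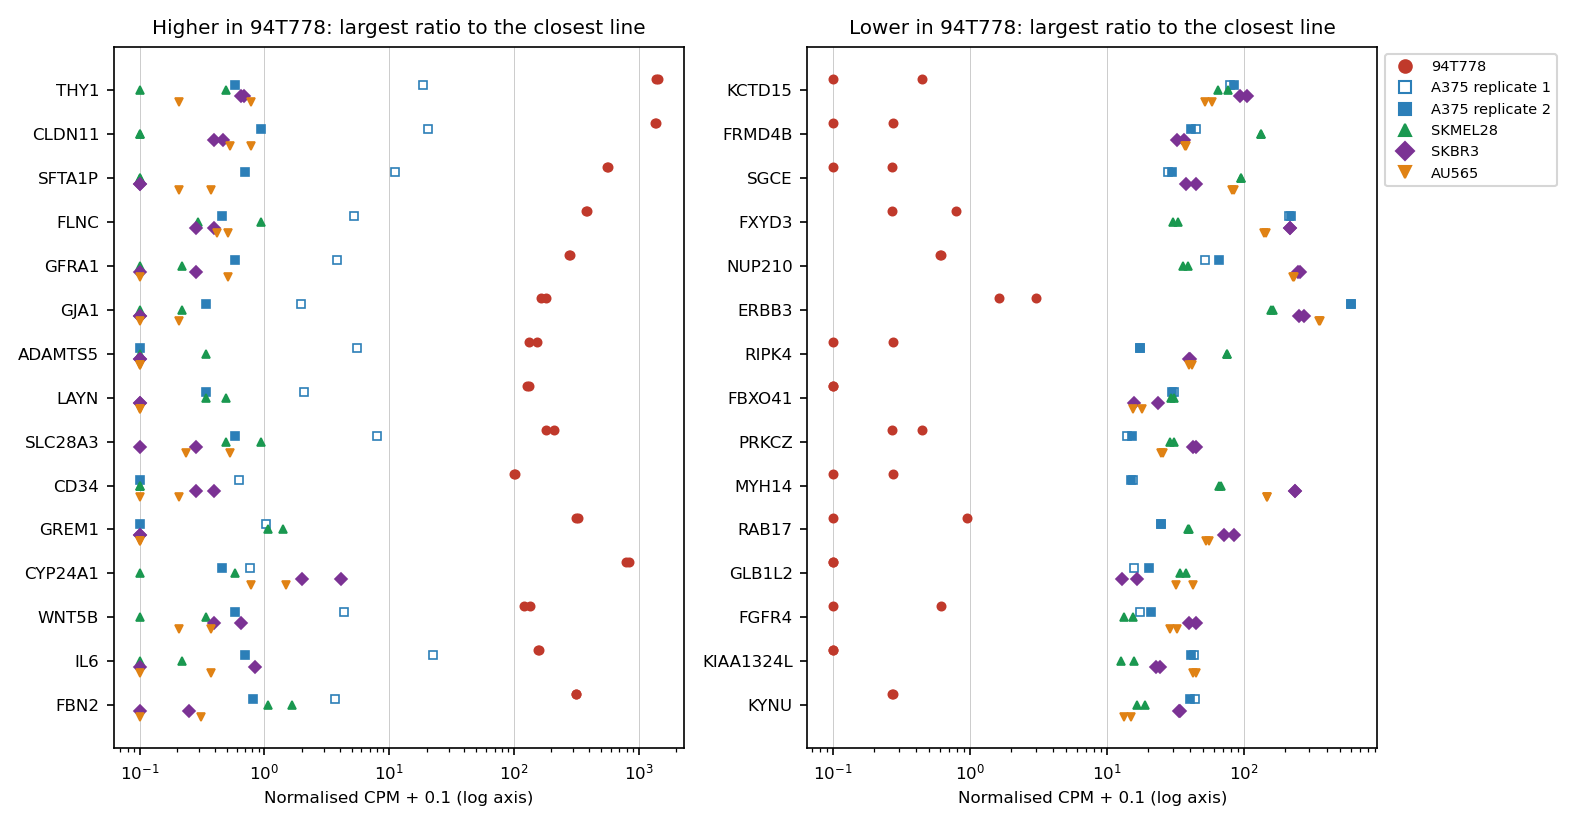
Level of the 15 higher and the 15 lower genes with the largest ratio to the closest line, in each untreated library, as normalised CPM plus 0.1 on a log axis. On the left both 94T778 points lie to the right of all others and A375 replicate 1 (hollow) lies above A375 replicate 2 in every row. On the right both 94T778 points lie to the left of all others, with FBXO41, GLB1L2 and KIAA1324L at 0 counts.

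The 15 lower genes with the largest ratio, among those with at least 10 CPM in all 8 other libraries, were KCTD15, FRMD4B, SGCE, FXYD3, NUP210, ERBB3, RIPK4, FBXO41, PRKCZ, MYH14, RAB17, GLB1L2, FGFR4, KIAA1324L and KYNU. KCTD15, a BTB domain protein, stood at 0.342 and 0 CPM (2 counts in all) in 94T778 and at 51.7 to 105 CPM in the 8 other libraries. ERBB3, the receptor for neuregulins, stood at 2.90 and 1.51 CPM against 156 and 162 CPM in SKMEL28, 251 and 275 CPM in SKBR3, 351 and 359 CPM in AU565 and 608 and 605 CPM in A375. It was 72.1-fold lower than in SKMEL28, the closest line. NUP210, a transmembrane nucleoporin, stood at 0.513 and 0.505 CPM against 35.6 to 254 CPM, 73.1-fold lower than in SKMEL28.

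FBXO41, GLB1L2 and KIAA1324L had no count in either 94T778 library. With 94T778 set to 3 counts summed over its pair of libraries, they were at least 65.6-fold, 57.2-fold and 55.1-fold lower than in the closest line. SGCE, the epsilon-sarcoglycan gene, which is expressed from the paternal allele, stood at 0 and 0.168 CPM against 27.6 to 94.8 CPM. PEG10, its imprinted neighbour, stood at 0.342 and 0.336 CPM against 4.18 to 869 CPM. H19, an imprinted noncoding RNA, stood at 1.03 and 0.168 CPM against 4.09 to 15.5 CPM in the melanoma lines and 4814 and 4764 CPM in SKBR3. In the list of imprinted and oncofetal genes 3 of 19 were higher (15.8%) and 4 lower (21.1%). The higher ones were PLAGL1, CDKN1C and PLAG1, and PLAGL1, a zinc finger protein, stood at 55.5 and 62.7 CPM against 3.94 CPM or less.

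Many genes of the extracellular matrix were higher in 94T778. The fibroblast and collagen lists, like all 34 lists, were chosen with earlier results of these data known. Their shares are therefore no independent evidence. Of 41 tested fibroblast surface and matrix genes, 20 were higher (48.8%) and 1, FBLN5, lower, with a median log2 difference of 4.36. FN1, fibronectin, stood at 52496 and 51590 CPM, against 17688 and 18355 CPM in SKMEL28, 636 and 59.1 CPM in A375 and 85.7 to 104 CPM in the breast lines. CDH11, the cadherin of mesenchymal cells, stood at 101 and 103 CPM against 2.64 and 1.07 CPM in A375 and 0 in the 6 other libraries. FBN2, a fibrillin, stood at 313 and 313 CPM against 3.56 CPM or less. VIM, vimentin, was not apart: it stood at 3208 and 3112 CPM in 94T778, 4024 and 4288 CPM in SKMEL28 and 2529 and 2491 CPM in A375, and at 14.8 CPM or less in the breast lines.

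Of 27 tested collagen genes 16 were higher (59.3%) and 2 lower (7.41%), with a median log2 difference of 2.98. Of the 2 lower genes COL15A1 was no longer apart by edgeR without 94T778 replicate 1, 94T778 replicate 2 or AU565 replicate 1 (adjusted p = 0.101, 0.106 and 0.232). COL6A3, a chain of the beaded microfibril collagen VI, stood at 2937 and 2956 CPM against 72.8 and 18.6 CPM in A375 and 3.71 CPM or less in the others, a ratio of 64.4, or 158 without A375 replicate 1. COL5A1 stood at 512 and 537 CPM against 19.7 CPM or less. COL1A2, a chain of the main fibrillar collagen of skin and bone, was higher too, but at only 8.20 and 9.08 CPM against 0.132 CPM or less. COL9A3 went the other way, with no count in 94T778, 197 and 217 CPM in A375 and 2.05 to 25.3 CPM in the rest. COL4A1 and COL4A2, the main basement membrane chains, were not apart. A375 lay above 94T778 in both, at 350 and 360 CPM for COL4A1 against 103 and 104 CPM.

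Among factors of mesenchymal development 11 of 38 were higher (28.9%) and 1, ETV4, lower. RUNX2, the master regulator of bone formation, stood at 93.3 and 96.2 CPM against 12.1 CPM or less, 8.98-fold above A375. TBX15, a T-box factor of adipose and skeletal precursors, stood at 15.4 and 18.5 CPM against 0.132 CPM or less. Bone and cartilage genes were higher in 6 of 13 (46.2%), with 0 lower. BMP4, a bone morphogenetic protein, stood at 43.9 and 44.4 CPM against 3.30 CPM or less. SPP1, osteopontin, stood at 46.0 and 50.8 CPM, 14.4 to 16.6 CPM in the melanoma lines and 0 in the breast lines. Smooth and skeletal muscle genes had 0 of 10 higher and 1, MYH11, lower, whose 94T778 libraries (0.342 and 0 CPM) overlapped SKMEL28 (0.196 and 1.55 CPM). MYH11 was no longer apart with DESeq2 (adjusted p = 0.0720), with limma-voom, or without 94T778 replicate 2, SKMEL28 replicate 2 or AU565 replicate 1.

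Genes of the mature fat cell were higher in 2 of 25 tested (8%) and lower in 2 (8%), beside 13% and 7.76% of all genes tested. ADIPOQ, LEP and CEBPA were too low for testing. FABP4, the fatty acid binding protein of fat cells, stood at 4.44 and 5.21 CPM against 0.264 CPM or less, and PLIN3, a lipid droplet protein of most cells, at 144 and 137 CPM against 38.0 to 76.3 CPM. PPARG, the main factor of fat cell differentiation, stood at 37.4 and 33.8 CPM, beside 35.5 and 35.1 CPM in AU565 and 89.1 and 91.9 CPM in A375. LPL, PLIN1 and CIDEC, which mark lipid-laden cells, were at 0.673 CPM or less in 94T778. None of these 3 genes was apart, so by this rule their low level does not set 94T778 off from each line. CEBPB, a factor of early differentiation, stood at 23.2 and 20.01 CPM against 35.5 to 207 CPM.

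Target genes of p53 were another large group on the higher side, and MDM2 itself is such a target. Of 30 tested members 16 were higher (53.3%) and 0 lower, with a median log2 difference of 1.59. This list too was chosen with earlier results of these data known, so its share is no independent evidence. The list leaves out MDM2, whose copy number and whose p53 response cannot be told apart in these libraries. The second promoter of MDM2 lies in the first intron of the gene and is the one known to bind p53. It is shown because MDM2 belongs both to the amplicon and to the p53 response. The stretch is chr12:68808767-68809001 (GRCh38.p14, plus strand, RefSeq promoter table), 235 bases that end before the next annotated exon, and the capitals mark the match to the p53 consensus:

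MDM2 second promoter: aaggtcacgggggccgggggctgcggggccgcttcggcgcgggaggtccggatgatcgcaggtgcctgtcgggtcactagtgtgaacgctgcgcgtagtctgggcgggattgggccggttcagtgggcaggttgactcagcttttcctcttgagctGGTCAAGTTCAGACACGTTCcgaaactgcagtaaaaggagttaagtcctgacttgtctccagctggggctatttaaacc

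The search was for the p53 consensus of 20 bases, made of 2 adjoining decamers without a spacer, with at most 2 mismatches outside the fixed C and G of each decamer. The consensus is its own reverse complement, so 1 pass covers both strands. Over windows from 250 bases before to 50 after each start, 100 of 35116 windows (0.285%), belonging to 98 of 27305 genes, held a match. Of the 30 p53 targets tested 22 had a window and 3 held a match, namely FAS and DDB2, which were apart, and AEN, which was not. Of the apart members 13 had a window. The matches of these 2 were the following 20 bases on the plus strand, at chr10:88991309-88991328 and chr11:47214969-47214988 of GRCh38.p14:

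FAS: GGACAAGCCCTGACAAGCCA

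DDB2: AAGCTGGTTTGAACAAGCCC

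A match describes these letters only, and a window without one says nothing of p53. In expression, FAS, the death receptor, stood at 39.0 and 35.0 CPM in 94T778, 17.3 and 17.1 CPM in A375, 5.47 and 7.65 CPM in SKMEL28 and 1.17 CPM or less in the breast lines. DDB2, which recognises ultraviolet damage, stood at 108 and 111 CPM, 68.6 and 68.9 CPM in A375, 22.3 and 26.2 CPM in SKMEL28, 17.7 and 15.5 CPM in SKBR3 and 7.55 and 6.72 CPM in AU565. In both genes the order was the same, with A375 next after 94T778.

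TRIM22, an antiviral ubiquitin ligase, had the largest ratio of the list, 46.1 to A375: it stood at 129 and 135 CPM against 3.56 CPM or less. TP53INP1, a stress protein that feeds back on p53, stood at 81.5 and 88.5 CPM against 1.38 to 22.5 CPM. EDA2R, a death-inducing receptor, stood at 44.9 and 43.9 CPM, 11.7 and 13.1 CPM in A375, 0.978 and 1.31 CPM in SKMEL28 and 0 in all 4 breast libraries. ZMAT3, an RNA-binding target of p53, stood at 184 and 198 CPM against 8.83 to 87.1 CPM. CDKN1A, the cyclin kinase inhibitor p21 and the best known target, was not apart. It stood at 95.7 and 90.6 CPM, below A375 at 134 and 140 CPM (adjusted p by edgeR 5.3e-07) and above the 8.37 to 14.3 CPM of the other 6 libraries.

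**Figure D5:**
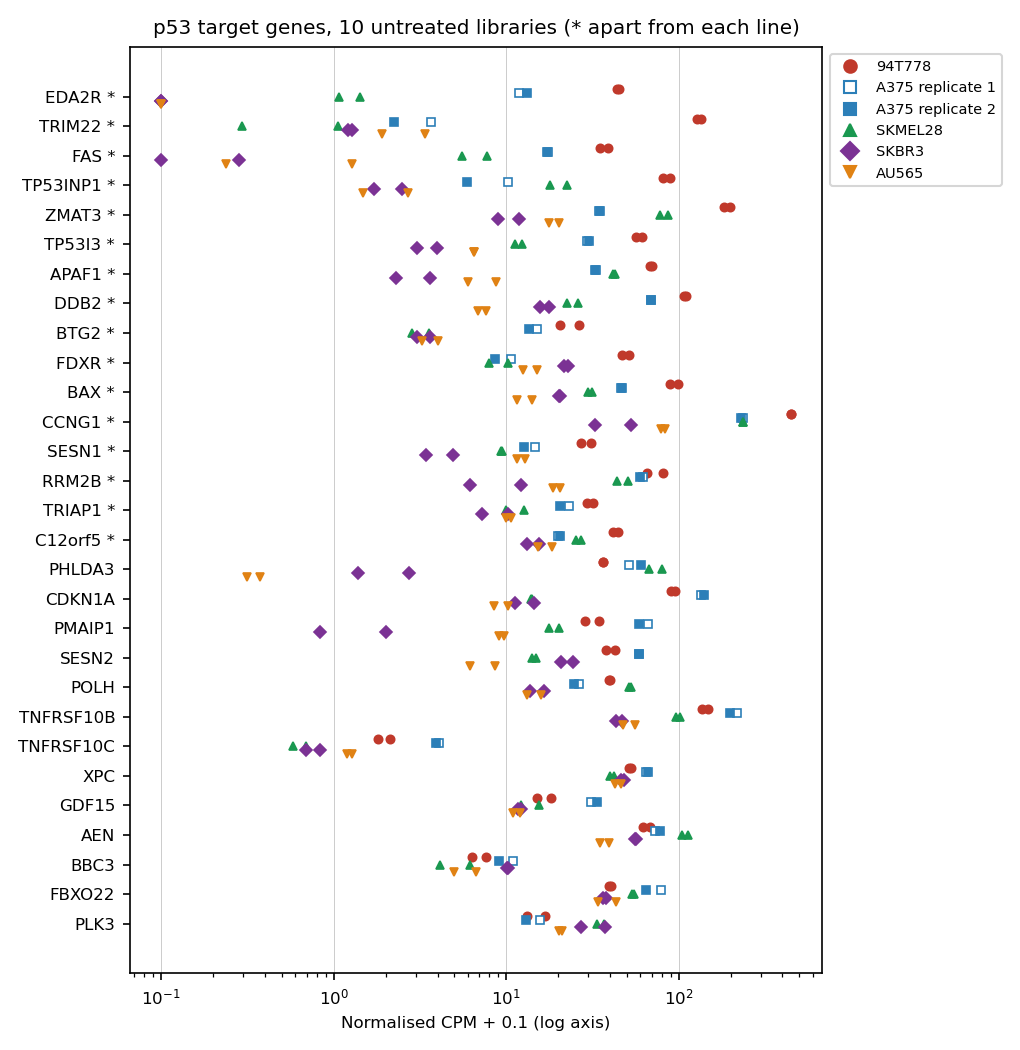
Level of tested p53 target genes in each untreated library, as normalised CPM plus 0.1 on a log axis, ordered by whether they were apart (marked *) and then by the difference from the mean of the 4 lines. In the 16 starred rows both 94T778 points lie to the right of all others, and for CDKN1A the A375 points at 134 and 140 CPM lie to the right of 94T778.

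Regulators of the G1 phase were mixed, with 5 of 27 higher (18.5%) and 3 lower (11.1%). CDKN2A, which encodes the CDK4 inhibitor p16 and the MDM2 inhibitor ARF, stood at 85.4 and 72.7 CPM against 2.24 to 33.0 CPM, a log2 difference of 2.76 ± 0.09 (SE). CDKN2B, a second CDK4 inhibitor, stood at 29.05 and 30.4 CPM against 10.6 CPM or less, and CCND2, a D-type cyclin, at 8.37 and 9.25 CPM against 0.660 CPM or less. DESeq2 did not call CCND2 apart (adjusted p = 0.544) and called 3 genes of this list higher. Without 94T778 replicate 2 or SKBR3 replicate 2 the list had 1 lower gene. CCNE1, the cyclin E of the next step, went the other way at 6.49 and 6.90 CPM against 11.5 to 26.6 CPM. CDK6, the partner kinase of CDK4 on another chromosome, was not apart: it stood at 106 and 124 CPM, below A375 at 236 and 237 CPM. HMGA1, the relative of HMGA2, was not apart either, at 794 and 699 CPM against 1054 and 1154 CPM in A375.

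The shares for genes of cell division and DNA repair, the subject of the series, stand beside 13% higher and 7.76% lower of all genes tested. Several counts of 1 to 3 genes in these lists moved when 1 library was left out. Mitosis genes had 5 of 30 higher (16.7%) and 0 lower. CCNA2, cyclin A, stood at 115 and 114 CPM against 29.4 to 73.5 CPM. Of DNA replication genes 5 of 32 were higher (15.6%) and 2 lower (1 with DESeq2 or without 94T778 replicate 2, SKBR3 replicate 2 or AU565 replicate 2), with GINS2, a subunit of the replicative helicase, at 49.6 and 46.8 CPM against 11.5 to 24.9 CPM and MCM7, a helicase subunit, lower at 165 and 165 CPM against 271 to 390 CPM. Homologous recombination genes had 5 of 38 higher (13.2%) and 1 lower (2.63%), Fanconi anemia genes 3 of 24 higher (12.5%) and 2 lower (8.33%), and polymerases 3 of 24 higher (12.5%) and 1 lower (4.17%). RECQL, a DNA helicase, was the recombination member with the largest ratio, 1.68 to SKMEL28, at 162 and 163 CPM against 13.4 to 104 CPM. Other repair genes had 1 of 47 higher, DDB2 (2 without either SKBR3 library and 3 without 94T778 replicate 2), and 4 lower, among them LIG3, a ligase of base excision repair, at 22.2 and 18.7 CPM against 31.4 to 53.8 CPM. Of 20 checkpoint genes 0 were higher and 1, the phosphatase CDC25B, was lower.

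HOX genes, which set position along the body axis, were higher in 12 of 36 (33.3%) and lower in 0, with a median log2 difference of 4.11 (2.54 with groups under 3 counts set to 3 counts). All 12 belonged to the HOXA and HOXB clusters. HOXA7 stood at 13.7 and 8.74 CPM against 0.717 CPM or less, and HOXA9 at 7.18 and 7.40 CPM against 0.923 and 0.478 CPM in A375 and 0 in the 6 others. HOXA11 stood at 10.9 and 7.57 CPM against 1.98 CPM or less, and HOXA13, of the far end of the cluster, at 10.8 and 11.4 CPM against 4.89 and 6.09 CPM in SKMEL28. The breast lines had 0.851 CPM or less in every library for the tested HOXA, HOXB and HOXD genes, so for these genes the comparison rested on A375 and SKMEL28.

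Growth factor ligands were higher in 14 of 33 (42.4%) and lower in 0, with a median log2 difference of 3.36. DKK3, a secreted relative of WNT inhibitors, stood at 1068 and 1036 CPM against 53.2 and 15.6 CPM in A375 and 3.32 CPM or less in the others, a ratio of 30.6, or 67.3 without A375 replicate 1. WNT5B stood at 134 and 120 CPM, with 4.22 and 0.478 CPM in A375 and 0.552 CPM or less in the others. FGF18, a fibroblast growth factor, stood at 9.06 and 7.90 CPM against 0.660 CPM or less. INHBA, a subunit of activin, was higher than the mean of the 4 lines and yet not apart, with 306 and 318 CPM against 321 and 316 CPM in A375 (log2 difference -0.03 ± 0.08, SE).

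Receptor tyrosine kinases divided. Of 39 tested 10 were higher (25.6%) and 4 lower (10.3%). EPHB2, an ephrin receptor, stood at 188 and 177 CPM against 15.3 CPM or less, and its relative EPHB1 at 33.3 and 37.2 CPM against 5.73 CPM or less. KIT, the stem cell factor receptor, stood at 4.61 and 4.20 CPM against 0.274 CPM or less. On the lower side INSR, the insulin receptor, had 1 count over both 94T778 libraries (0.171 and 0 CPM) against 10.0 to 21.6 CPM, and FGFR4 stood at 0.513 and 0 CPM against 13.1 to 44.1 CPM. Adhesion genes were higher in 9 of 28 (32.1%) and lower in 1. ALCAM, an immunoglobulin adhesion protein, stood at 926 and 930 CPM against 25.9 to 61.2 CPM, and CDH6, a cadherin, at 45.3 and 46.9 CPM against 1.06 and 0.358 CPM in A375 and 0 in the 6 others. ITGA9, an integrin chain, was lower at 1.03 and 0.168 CPM against 3.49 to 66.4 CPM.

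In TGF-beta and WNT signalling 8 of 41 genes were higher (19.5%) and 4 lower (9.76%). TGFBR2, the receptor that binds TGF-beta, stood at 335 and 335 CPM against 6.99 to 99.4 CPM, and SMAD3, one of its effectors, at 389 and 411 CPM against 43.8 to 145 CPM. SMAD2, the companion effector, was lower at 55.4 and 55.0 CPM against 75.1 to 102 CPM. TCF7, a WNT effector, stood at 64.6 and 68.8 CPM against 7.77 CPM or less. NOTCH3 and HES1, a receptor and a target of the Notch pathway, were both lower. HES1 stood at 3.59 and 1.68 CPM against 11.5 to 513 CPM.

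Antigen presentation and interferon genes were higher in 9 of 35 (25.7%) and lower in 2 (5.71%). ISG15, a ubiquitin-like protein induced by interferon, stood at 41.7 and 36.7 CPM against 1.79 to 7.63 CPM, and DDX58, the RNA sensor RIG-I, at 26.5 and 26.6 CPM against 4.49 to 7.04 CPM. BST2, tetherin, was lower at 0.342 and 0 CPM against 3.30 to 54.5 CPM. Genes of the MTOR pathway were higher in 9 of 40 (22.5%) and lower in 2 (5%), with a median log2 difference of -0.02. FLCN, folliculin, stood at 91.6 and 107 CPM against 15.9 to 32.0 CPM, and RRAGC, the Rag GTPase it acts on, at 155 and 145 CPM against 19.5 to 77.2 CPM. DDIT4, a stress-induced inhibitor of MTOR, stood at 19.5 and 19.8 CPM against 95.0 to 378 CPM, 5.07-fold lower than in SKMEL28.

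In metabolism, glycolysis and hypoxia genes were higher in 8 of 29 (27.6%) and lower in 2 (6.90%). Of the 2 lower genes HK2 was no longer apart without the filter on low counts or with untreated libraries only. The same held without either 94T778 library or without A375 replicate 1. PGAM1, a glycolytic mutase, stood at 672 and 615 CPM against 115 to 249 CPM, and PFKM, the muscle phosphofructokinase, was lower at 51.6 and 52.5 CPM against 131 to 166 CPM. Cholesterol and fatty acid synthesis had 3 of 28 higher (10.7%) and 2 lower (7.14%), and without either SKBR3 library 5 were higher. FADS2, a fatty acid desaturase, stood at 307 and 274 CPM against 0.368 to 28.7 CPM, while ACLY, which makes the acetyl-CoA for both pathways, was lower at 255 and 250 CPM against 338 to 1015 CPM. Of 12 tested mitochondrially encoded genes 0 were higher and 3 lower by edgeR. DESeq2 called 1 of the 3, with an adjusted p of 0.0536 for MT-ND4 and 0.106 for MT-ND4L. SKBR3 replicate 1 had the highest MT-ND4 at 21752 CPM against 12165 CPM in its replicate 2. The MYC network had 1 of 11 higher and 1 lower.

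Genes of the other tissues are described as well, but their counts apart cannot serve as a check of the contrast. To be apart on the lower side, 94T778 had to lie below every line, including lines of a tissue that does not mark the gene. To be apart on the higher side, it had to lie above the lines of the gene's own tissue. Epithelial genes had 0 of 29 higher and 3 lower (10.3%), with a median log2 difference of -3.41. Of the 3 lower genes SPINT1 was no longer apart without the filter on low counts or with untreated libraries only. Their summed level, with the untested CDH1, was 695 CPM in 94T778, 546 CPM in A375 and 112 CPM in SKMEL28. In SKBR3 the sum was 27109 CPM and in AU565 15133 CPM. ESRP1, a splicing regulator of epithelial cells, had no count in 94T778 and stood at 0.528 and 0.836 CPM in A375 and 27.6 to 55.3 CPM in the others. Luminal and HER2 breast genes had 0 of 21 higher and 7 lower (33.3%), of which ERBB3 had the largest ratio. Melanocyte genes had 1 of 20 higher, KIT, and 0 lower. Their summed level was 812 CPM in 94T778, 356 CPM in SKBR3 and 161 CPM in AU565. The 0 lower calls therefore do not tell how 94T778 compares with the melanoma lines. Neural crest genes had 5 of 18 higher (27.8%) and 3 lower (16.7%), and NES, the filament protein nestin, had 1 count over both 94T778 libraries against 302 and 305 CPM in A375.

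Of 9 tested markers of blood and endothelial cells 2 were higher, PTPRC and TIE1, and 12 more of the list were too low for testing, CD3E, CD14 and SPI1 among them. PTPRC, the leukocyte phosphatase CD45, stood at 15.7 and 18.3 CPM in 94T778 and at 0.147 CPM or less elsewhere. It closed a run of 3 higher neighbours on chromosome 1 with LHX9 and NEK7. The summed level of the 21 markers counted, tested or not, was 83.6 CPM in 94T778, 68.4 CPM in A375 and 153 CPM in SKMEL28. It was 101 CPM in SKBR3 and 101 CPM in AU565.

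Some large differences from the mean were not differences from each line. NID1, a basement membrane linker, stood at 136 and 130 CPM in 94T778 and 339 and 364 CPM in A375, against 1.37 CPM or less in the others. IL13RA2, a decoy receptor, stood at 190 and 198 CPM, again below A375 at 858 and 808 CPM. MAP1B, a microtubule protein, stood at 235 and 239 CPM beside 212 and 215 CPM in A375, and was called apart without SKBR3 replicate 2 (adjusted p by edgeR 0.045). On the lower side MEST, S100P, ELMO1 and MUC1 were low in 94T778 and SKMEL28 alike. MUC1, an epithelial mucin, stood at 0.342 and 0.168 CPM in 94T778, 0.782 and 0.478 CPM in SKMEL28 and 96.2 to 203 CPM in the breast lines.

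The same rule was applied to the 10 torkinib libraries, none of which enter the untreated contrast, although both share 1 estimate of the spread and the doses differed: 10 µM for 94T778, 4 µM for A375, SKMEL28 and AU565 and 0.8 µM for SKBR3. There 2382 genes (14.3%) were higher than in each line and 1487 (8.91%) lower. Apart in both states were 1537 higher genes, 71.0% of the untreated and 64.5% of the torkinib list, and 783 lower genes, 60.5% and 52.7%. The 15 higher and 15 lower genes with the largest ratios were all apart again. MDM2 stood at 6227 and 5829 CPM in 94T778 with torkinib against 37.7 to 306 CPM, and CDK4 at 2392 and 2463 CPM against 106 to 260 CPM.

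The share apart in both states is given for some of the lists, with no test between lists. For all genes apart when untreated it was 71.0% on the higher side and 60.5% on the lower side. Of the 32 amplicon genes higher in untreated 94T778, 30 were also higher with torkinib, and so were 10 of 10 higher receptor kinases, 9 of 9 higher antigen and interferon genes and 13 of 16 higher collagens. The same held for 7 of 16 higher p53 targets, 2 of 8 higher glycolysis and hypoxia genes and 0 of 5 higher mitosis genes. Of genes lower in the untreated state, the 1 amplicon gene, 2 of 2 collagens, 2 of 2 glycolysis and hypoxia genes and 1 of 2 antigen and interferon genes were also lower with torkinib. Opposite in the 2 states, and named after their values were seen, were 5 genes. LDHA, lactate dehydrogenase A, was higher in untreated 94T778 at 4018 and 3948 CPM against 601 to 3168 CPM, and lower with torkinib at 432 and 411 CPM against 585 to 1165 CPM. CDC25B, HOMER2, PREX1 and TPCN1 were lower untreated and higher with torkinib. TPCN1, a lysosomal ion channel, stood at 32.5 and 32.0 CPM untreated against 47.4 to 153 CPM, and at 340 and 283 CPM with torkinib against 40.3 to 169 CPM.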

How the data were processed

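Total RNA (Qiagen RNeasy, per the labels' protocols) of 5 lines was sequenced. The deposited files hold whole-number counts of reads per gene symbol, made by the authors without normalization, and each library has its own file. The submitters' processing notes list the tools limma 3.34.9, HISAT2 2.04 and HTSeq 0.6.1, with GRCh37 (hg19) as the genome build. What each tool did, which annotation was counted and whether strand was used is not given in the sources used here. Counted reads were 51.3 to 62.4% of all reads in the untreated libraries, and the counter's summary lines stayed out of library sizes and tests. All tests used edgeR 4.0.16 under R 4.3.3 (TMM, filterByExpr, 16698 of 50775 features tested, 10 group means over all 20 libraries, quasi-likelihood test, Benjamini-Hochberg adjustment over all genes tested). The total depth limits the precision of low genes, and values of a few counts carry counting error beyond the spread shown.

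Symbols of 14389 tested genes were found in the RefSeq gene table (GRCh38.p14), which gave chromosome and gene order only, since its build is not that of the files. Promoter windows came from RefSeq, GRCh38.p14. The members and the 34 gene lists were chosen with earlier results of these data known. Named were the 15 genes in each direction with the largest ratio to the closest line, up to 4 per list and direction, 11 genes of the amplicon and its partners, 4 per direction called for the mean alone, and genes of runs, along with members described beside them to show an exception. Scripts were tested on simulated data. Alternatives were RLE factors, no filter, DESeq2 1.42.0, limma-voom (limma 3.58.1), untreated libraries only, a replicate block, a test against a 2-fold difference, other weights, other rules for runs, and leaving out each library. PECAM1, HOXC4 and RAD51D, among others of the lists, were not analysed here. A few items are not reported here.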

Additional observations from a re-analysis of the deposited data

How the results depend on the processing

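No named gene changed direction under any alternative, and the main counts stayed within 1.5 times the reported ones except as follows. Tested against a 2-fold difference, 94T778 was higher than the mean for 2880 genes and lower for 1644. The same test gave 2106 and 2323 against A375, 2304 and 2228 against SKMEL28, 3983 and 3506 against SKBR3, and 3612 and 3136 against AU565. It left 900 higher and 325 lower genes apart, and 201 of the 279 named apart genes. Runs of neighbours numbered 69 at a ratio of 1.5 and 10 at a length of 4 genes, of which 5 were on chromosome 12. The counts apart, higher and lower, were 2212 and 1268 with RLE factors, 2149 and 1207 without the filter, 1902 and 1158 with DESeq2, 2162 and 1342 with limma-voom and 2051 and 1241 with untreated libraries only. The side with more calls turned against A375, with 5415 higher and 5307 lower in untreated libraries only (reported 5419 and 5783), and against SKMEL28, with 5348 and 5403 without the filter, 5116 and 5136 in untreated libraries only and 5035 and 5069 without SKMEL28 replicate 1 (reported 5430 and 5325). Leaving out 1 library gave 1914 to 2215 higher and 1057 to 1385 lower genes apart. Of the named apart genes 14 were lost with DESeq2, 4 without the filter, and up to 19 without 1 library (94T778 replicate 2). Replicate numbers carried no strong shared shift between groups: the 45 correlations of replicate differences ran from -0.0572 to 0.0676. A replicate block gave 2146 higher and 1288 lower genes apart and lost no named gene. Counting noise enters these differences, so they cannot tell whether libraries were prepared in pairs.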
